A study of Xenopus tropicalis with 6 samples.

Results

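The exon bins of neuronal adhesion genes were 877 of the 267746 bins in which exon-level reads had been counted in stage 46 *Xenopus tropicalis* brains. An exon bin is an exon, or the part of an exon that the annotated transcripts of a gene share or do not share. The members were taken by gene symbol: neurexins, neuroligins, contactins, contactin-associated proteins, neural immunoglobulin adhesion molecules, the amyloid precursor family and the receptor protein tyrosine phosphatases whose symbol is ptpr with a single letter, which leaves out *ptprn2* and *ptprz1*. Symbols came from the normalized gene values of the authors, which had 15079 entries, the number of genes that the paper counts as expressed. Genes without an entry could not be members, while their bins can be among the bins over all genes. The members belonged to 37 of 33543 gene models, and 850 of the 877 bins held at least 1 count in some library. None of the 37 genes lay in a merged model of overlapping genes.

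The *dyrk1a* CRISPR group and the control group each comprised 3 libraries, and each library was made from 3 pooled brains of tadpoles at stage 46, when the main parts of the brain are in place. The CRISPR tadpoles had received Cas9 protein with an sgRNA against *dyrk1a*, a protein kinase gene, in both blastomeres of the 2-cell embryo, and their genotype is labelled dyrk1a knockdown. The injected animals themselves were analysed, so that a brain can hold edited and unedited cells, and the methods state that the most strongly mutagenized brains had been chosen by genotyping the carcasses. Control tadpoles, labelled WT (wild type), were uninjected, and neither Cas9 nor an unrelated guide was given to them. The pools were independent, and p-values measure the spread between pools. Transcripts of *dyrk1a* were at 17.05, 13.5 and 14.8 cpm (read counts adjusted for the depth of the library) in CRISPR libraries 1, 2 and 3 and at 21.0, 10.8 and 14.6 in control libraries 1, 2 and 3; small insertions and deletions need not change this level. Exon bins summed to between 20015023 counts (control 3) and 69480534 counts (control 1) per library, and the member bins took 1.05% to 1.51% of them.

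Neurexins on the presynaptic side bind neuroligins on the postsynaptic side, and receptor phosphatases of the LAR type form a further set of presynaptic organizers. Contactins pair with contactin-associated proteins along axons and at contacts with glia, and NCAM, L1 and neuroplastin proteins carry immunoglobulin domains that bind one another or partners on other cells. In mammals many of these transcripts include or skip short exons, and the included residues change which partner is bound. Kinases of the DYRK family are known to phosphorylate splicing factors, and the exon counts address whether exon usage differed in the mutagenized brains. The bins carry a gene and a running number only. That number follows the position on the chromosome and not the direction of transcription, so bin 1 may be either end of a gene, and no bin could be matched here to a named exon of a mammal.

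The first question was which member bins were used in only part of the transcripts, whatever the treatment. An internal bin was called a low-use bin when it held at least 30 counts over the 6 libraries and less than 25% of the mean count of the 2 bins beside it. Bin length was not known, and a short bin also collects fewer reads. This held for 23 of 743 internal member bins (3.1%), in 17 genes, against 3.07% of 126129 internal bins over all single-gene models. Low-use bins were thus about as frequent in these genes as elsewhere.

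**Figure D1:**
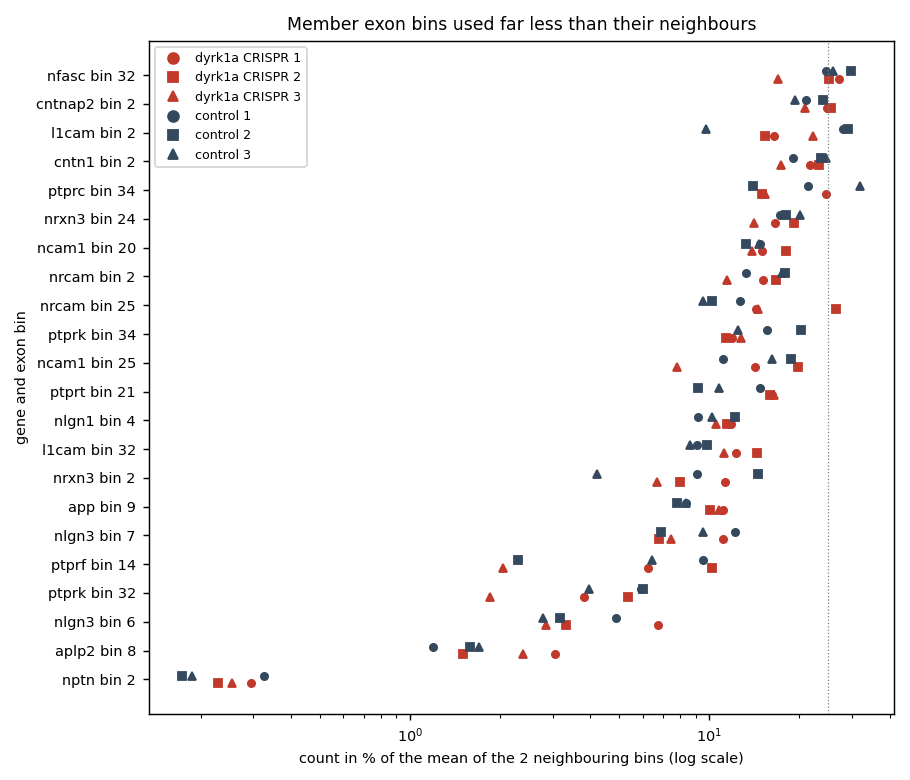
Low-use member bins (22 of the 23), each with its count in percent of the mean of its 2 neighbouring bins (log axis) in every library; red symbols are *dyrk1a* CRISPR and dark symbols control libraries, and the dotted line is at 25%. The values run from below 1% in *nptn* bin 2 to 32% in control library 3 for *ptprc* bin 34, since the limit of 25% was set on the sum over the libraries, and the groups are apart in *app* bin 9, *l1cam* bin 32, *nrcam* bin 25 and *ptprt* bin 21.

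The lowest was *nptn* bin 2, with 303 counts and 0.259% of its neighbours, in a gene with 702320 bin counts. The neuroligin gene *nlgn3* had a pair of adjacent low-use bins: bin 6 stood at 2.79% to 6.74% of its neighbours over the 6 libraries and bin 7 at 6.80% to 12.2%. In *nlgn1* bin 4 stood at 9.15% to 12.2%. In mammals neuroligin transcripts carry short optional exons in the part that meets the neurexin, and whether these are the same exons was not tested. In these bins of the neuroligins the groups overlapped. In 2 of the 23 low-use bins, *app* bin 9 and *l1cam* bin 32, all CRISPR libraries lay above all controls both in share and relative to the neighbouring bins. In *nrcam* bin 25 and *ptprt* bin 21 they lay above them relative to the neighbours only. By share, 4.32% of all bins were higher without overlap. The same relative to neighbouring bins was not counted over all bins, and so few bins do not set the low-use bins apart.

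The main comparison asked whether any member bin took a different part of its gene's counts in *dyrk1a* CRISPR brains. In the exon usage test of edgeR, 0 of 850 member bins passed an adjusted p under 0.05, with values near 1 throughout, and 0 of 214537 bins did over all genes. At an unadjusted p under 0.05, edgeR gave 6 member bins, 4 higher and 2 lower in CRISPR brains, which is 0.706% of the members against 1.07% of all bins. This number was 10 without CRISPR 2 (1.18% of members against 1.19% of all bins) and 3 without control 3 (0.353% against 0.850%). Refitted on bins with a mean of at least 10 counts, edgeR gave 0.645% of members against 0.489% of all bins, so the order was reversed. All these edgeR percentages lie well below the 5% that this threshold would give if no bin changed. The edgeR usage test was thus conservative on these data, and its adjusted p near 1 do not show an absence of change. With the model of DEXSeq, fitted with DESeq2, 2 member bins passed, *app* bin 9 (higher) and *nptn* bin 4 (lower). These were 0.549% of the 364 members for which that model gave an adjusted p, against 0.112% of 23206 bins over all genes, and at an unadjusted p under 0.05 it gave 12 members (1.41%) against 1.98% of all bins. The limma fit called 0 members at the adjusted threshold, against 1 of 214537 bins over all genes. At an unadjusted p under 0.05 it gave 6 members (0.706%), against 1.74% of all bins. Member counts of the DEXSeq model depended on single libraries. Without control 1 it called 6 of 375 members with an adjusted p, and 614 of 27059 bins over all genes in place of 26. Without control 2 it called 0 of 581 members and 5 of 55931 bins.

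**Figure D2:**
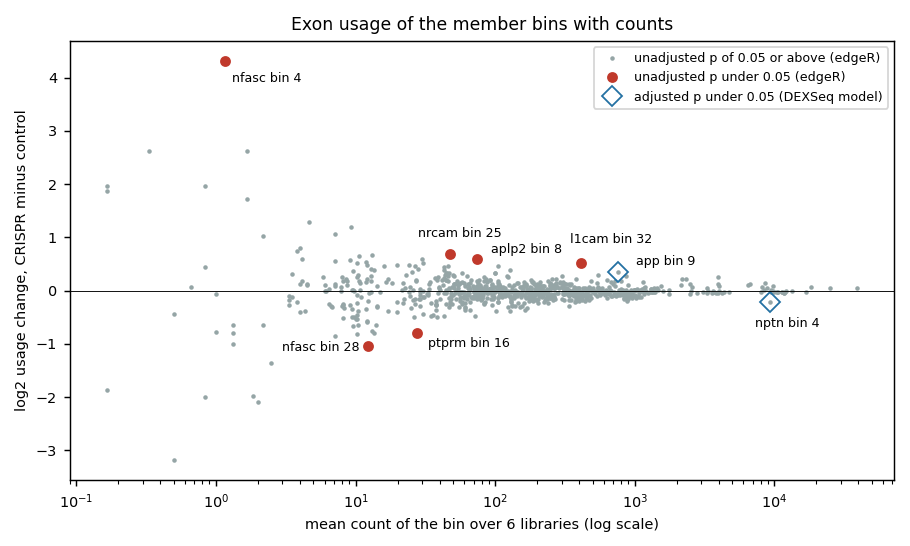
Log2 usage change of each member bin with counts (edgeR, CRISPR minus control, relative to the other bins of its gene) against its mean count (log axis); red points have an unadjusted p under 0.05 and blue diamonds pass the DEXSeq model. Large changes sit at mean counts under 10, and the 2 diamonds lie at 0.35 and -0.21.

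Among the 498 member bins with a mean of at least 100 counts, the log2 usage change lay between -0.39 (*nrxn3* bin 11) and 0.52 (*l1cam* bin 32), with a median absolute value of 0.06. It was beyond 0.25 in either direction in 21 of them. These were 14 of 213 such bins of receptor protein tyrosine phosphatases, the largest group, and 3 of 109 of immunoglobulin adhesion molecules. The others were 2 of 62 bins of neurexins, 1 of 47 of the amyloid precursor group and 1 of 28 of the contactin-associated group. The same was not counted over all bins. In the neuroligins (13 such bins) and the contactins (26) 0 bins went beyond 0.25, which on so few bins does not set these genes apart.

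Each bin was also expressed as the percentage that it holds of the counts of its own gene in a library, called its share. Shares were compared for 829 member bins of genes with at least 30 bin counts in every library. In 28 of them (3.38%) all 3 CRISPR libraries lay above all 3 controls, and in 33 (3.98%) all lay below, against 4.32% and 4.92% of 172140 bins over all genes. For every such bin the two-sided exact permutation p is 0.1, the smallest that 3 libraries against 3 can give. Both percentages were close to those over all bins. With a library left out, 3 against 2 libraries overlap less by construction, so percentages rise over all bins too. Without CRISPR 2, 13.8% of the member bins were lower against 10.3% of all bins, and without control 1 these were 15.3% and 14.4%. Members were below all bins without CRISPR 1 (8.69% lower against 9.36%) and CRISPR 3 (7.48% against 8.43%). The same held without control 2 (7.24% against 8.85%) and control 3 (7.6% against 9.03%).

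The amyloid precursor family comprised *app* (20 bins, 1076019 bin counts), *aplp2* (19 bins, 424615) and *aplp1* (18 bins, 14353). These genes encode membrane proteins of neurons, and in mammals the *APP* and *APLP2* transcripts include or skip an exon for a Kunitz protease inhibitor domain. *app* bin 9 held 1062, 782 and 563 counts in CRISPR libraries 1, 2 and 3 and 960, 859 and 357 in control libraries 1, 2 and 3. These counts were 0.510%, 0.470% and 0.463% of *app* in the CRISPR libraries and 0.365%, 0.379% and 0.395% in the controls. The groups did not overlap: the mean was 0.481% ± 0.0253 (SD, n = 3) in CRISPR and 0.380% ± 0.0149 (SD, n = 3) in control brains. The bin is low in use, and relative to the bin before it the count was 7.79%, 7.09% and 7.57% in CRISPR and 5.88%, 5.45% and 5.87% in control libraries. Relative to the bin after it, the groups were apart in the same direction. In edgeR the log2 usage change was 0.35 (unadjusted p = 0.0574), and in the DEXSeq model it was 0.35 with an adjusted p of 0.00283. Leaving out each library in turn gave adjusted p between 0.00557 and 0.138 in the DEXSeq model, and the call was lost without control 2. Which *app* exon bin 9 is could not be determined here.

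*aplp2* bin 8 was a low-use bin with the smallest unadjusted p among member bins of at least 10 counts on average. Its counts were 136, 58 and 69 in CRISPR libraries 1, 2 and 3 and 67, 84 and 29 in control libraries 1, 2 and 3, or 0.170%, 0.0847% and 0.128% against 0.0652%, 0.0942% and 0.0957% of the gene. CRISPR library 2 fell inside the control range, so the groups overlapped. The log2 usage change was 0.60 in edgeR (unadjusted p = 0.0308), and it was 0.32 without CRISPR 1 (unadjusted p = 0.327). *app* bin 14 was the bin of at least 1% share with the largest difference without overlap in this family, and that difference was small: 6.19% to 6.25% in CRISPR and 6.25% to 6.41% in control libraries. The 1 higher and 1 lower bin of *app* were all the bins without overlap among 52 compared in the family, and *aplp1* and *aplp2* had none. This was 1.92% in each direction, against 4.32% and 4.92% of all bins.

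The neural immunoglobulin adhesion molecules were *nptn* (12 bins, 702320 bin counts), *l1cam* (33 bins, 181252), *ncam1* (26 bins, 101387), *nrcam* (35 bins, 78271), *ncam2* (23 bins, 46921) and *nfasc* (33 bins, 4726). Among their 155 bins compared, 13 (8.39%) were higher and 5 (3.23%) lower without overlap, against 4.32% and 4.92% of all bins, and 6 of the 13 were bins of *ncam2*. *nptn* encodes neuroplastin, which in mammals is made in a long form with an additional immunoglobulin domain and a short form without it. *nptn* bin 4 took 7.41%, 7.15% and 7.33% of the gene in CRISPR libraries 1, 2 and 3 and 8.12%, 8.69% and 8.52% in control libraries 1, 2 and 3. All CRISPR libraries were lower, with means of 7.30% ± 0.132 (SD, n = 3) and 8.45% ± 0.293 (SD, n = 3). Bin 3, the bin of largest share in *nptn*, took 33.1% on average. Relative to bin 3, bin 4 stood at 22.5%, 21.5% and 21.1% in CRISPR and at 23.2%, 28.05% and 26.7% in control libraries, again without overlap. The log2 usage change was -0.21 in edgeR (unadjusted p = 0.234) and -0.23 in the DEXSeq model (adjusted p = 0.00173). In that model the call was lost without CRISPR 3 (adjusted p = 0.0507), without control 2 (0.0625) and without control 3 (0.0981), and without control 1 the adjusted p was 1.69e-09. *nptn* bins 10 and 12 were higher without overlap, bin 12 at 1.91% to 2.12% against 1.55% to 1.89%.

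*l1cam* encodes a cell adhesion molecule of growing axons, and in mammals neurons include short exons in it that other cells skip. *l1cam* bin 32 held 1.47%, 1.501% and 1.92% of the gene in CRISPR libraries 1, 2 and 3 and 1.21%, 1.09% and 1.04% in control libraries 1, 2 and 3. Every CRISPR library lay above every control, and CRISPR library 3 was the highest. The neighbouring bin 33 is the end bin with the largest share, which was itself high in CRISPR library 3. Against the neighbour on the other side, bin 31, the count of bin 32 was 44.7%, 51.7% and 48.1% in CRISPR and 35.6%, 32.7% and 32.3% in control libraries, so that the groups stayed apart. The log2 usage change was 0.52 in edgeR (unadjusted p = 0.0344) and 0.53 in the DEXSeq model, where the adjusted p was 0.0506. With a library left out, the DEXSeq model called this bin in 2 of 6 fits. These were the fits without CRISPR 1 (0.60, adjusted p = 0.0434) and without control 1 (0.60, adjusted p = 0.00854). Without CRISPR 3 it gave 0.40 (adjusted p = 0.225). The adjusted p was 0.0939 without CRISPR 2 and 0.757 without control 3, and the bin did not pass without control 2 either.

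*nrcam* bin 25 owed its place among the smallest p to 1 library. It held 0.339%, 0.727% and 0.280% of *nrcam*, a gene of axons and nodes, in CRISPR libraries 1, 2 and 3 and 0.328%, 0.256% and 0.277% in control libraries 1, 2 and 3. The counts behind these shares were 43, 90 and 26 against 64, 46 and 18. CRISPR library 2 stood apart, the other libraries of both groups overlapped, and without CRISPR 2 the log2 usage change in edgeR dropped from 0.69 (unadjusted p = 0.0407) to 0.12 (unadjusted p = 0.761). *nfasc*, which encodes neurofascin of the axon initial segment, gave a like case in the control group. Its bin 28 took 0.994% to 1.31% in CRISPR and 1.25%, 1.99% and 4.67% in control libraries 1, 2 and 3, on 8 to 18 counts a library. Without control 3 its log2 usage change moved from -1.04 (unadjusted p = 0.0440) to -0.51 (unadjusted p = 0.385). *nfasc* bin 4 had its 7 counts in CRISPR library 3 alone. The 6 bins of *ncam2*, a neural cell adhesion molecule gene, that were higher without overlap were bin 4 and the adjacent bins 9 to 13. Their differences were small: bin 11 took 4.02%, 4.22% and 4.13% in CRISPR and 3.74%, 3.65% and 3.77% in control libraries (log2 usage change 0.15, unadjusted p = 0.441 in edgeR). Adjacent bins share read pairs, so bins 9 to 13 are not separate measurements.

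**Figure D3:**
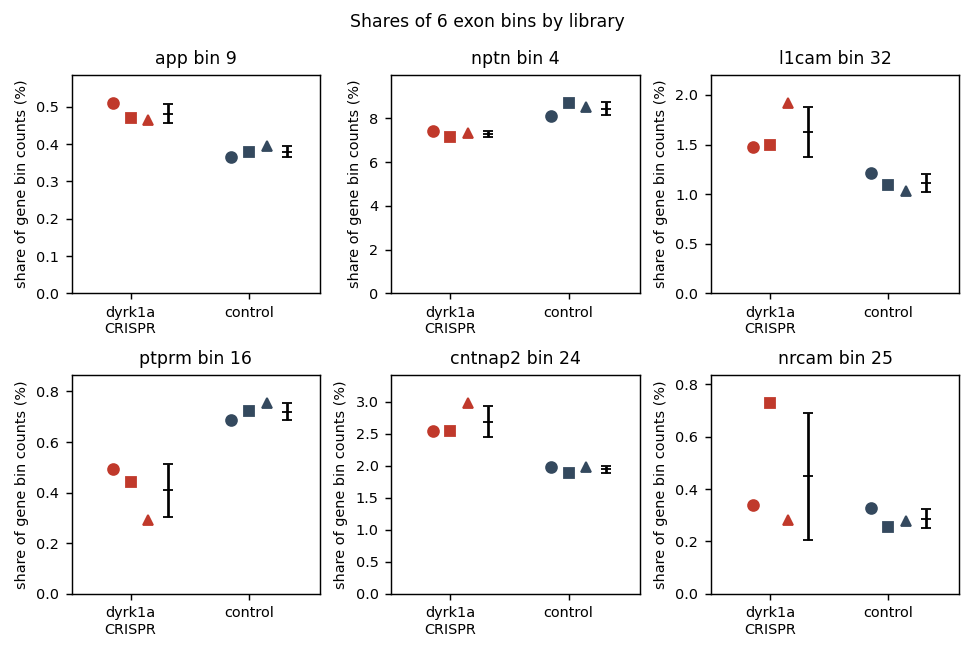
Share of 6 member bins in percent of the bin counts of their gene, by library (circle, square and triangle are replicates 1, 2 and 3), with the mean and SD of each group in black. The groups are apart in *app* bin 9, *nptn* bin 4, *l1cam* bin 32, *ptprm* bin 16 and *cntnap2* bin 24, and *nrcam* bin 25 is set apart by CRISPR library 2 alone.

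Of the neurexins, *nrxn2* (23 bins, 100997 bin counts) and *nrxn3* (25 bins, 29569) are described. In these genes 0 bins were higher without overlap in CRISPR brains, against 4.32% of all bins. Bin 14 of *nrxn2* (1 of 23) and bins 11, 13 and 14 of *nrxn3* (3 of 25) were lower, against 4.92% of all bins. *nrxn3* bin 11 was at 1.73%, 2.17% and 1.43% in CRISPR libraries 1, 2 and 3 and 2.25%, 2.28% and 2.53% in control libraries 1, 2 and 3. All CRISPR libraries were lower by share, but relative to the neighbouring bins the groups overlapped (109% to 120.2% against 112% to 119.9%). The log2 usage change was -0.39 (unadjusted p = 0.122 in edgeR). *nrxn3* bin 10 had a smaller p, with shares of 2.07%, 2.71% and 2.00% in CRISPR and 2.65%, 2.99% and 3.35% in control libraries, which overlapped (log2 usage change -0.38, unadjusted p = 0.104 in edgeR). The bins of largest share were end bins, namely bin 23 of *nrxn2* (23.7% on average) and bin 25 of *nrxn3* (50.01%). A larger share of such a bin lowers the share of all others in the same library.

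The neuroligins were *nlgn3* (11 bins, 34263 bin counts), *nlgn1* (9 bins, 15206) and *nlgn2* (4 bins, 829). In 0 of their 24 bins were the groups apart in either direction, against 4.32% higher and 4.92% lower of all bins. *nlgn3* bin 4 had the largest spread within a group relative to counting error, at 3.35%, 4.49% and 3.86% in CRISPR libraries 1, 2 and 3 and 3.79%, 2.82% and 4.16% in control libraries 1, 2 and 3. Both groups spanned a like range (log2 usage change 0.16, unadjusted p = 0.450 in edgeR), and without control 2 the change was -0.0065. The bins of largest share were bin 11 of *nlgn3* (30.9%), bin 9 of *nlgn1* (24.9%) and bin 3 of *nlgn2* (39.4%).

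The contactins were *cntn1* (24 bins, 168371 bin counts), *cntn4* (24 bins, 13074), *cntn5* (25 bins, 7206) and *cntn2* (15 bins, 5343), which encode immunoglobulin proteins held in the axon membrane by a lipid anchor. Of their 88 bins, 2 (2.27%) were higher and 5 (5.68%) lower without overlap, against 4.32% and 4.92% of all bins. *cntn5* bin 21 differed most, at 3.17%, 2.50% and 3.34% in CRISPR libraries 1, 2 and 3 and 3.89%, 4.32% and 4.44% in control libraries 1, 2 and 3 (log2 usage change -0.49, unadjusted p = 0.138 in edgeR). Bin 20 beside it was lower too, and bins 23 and 24 were higher, all on fewer than 300 counts each over the 6 libraries. The contactin-associated proteins were *cntnap4* (24 bins, 28986), *cntnap2* (24 bins, 27353), *cntnap1* (25 bins, 12438) and *cntnap5* (22 bins, 526). *cntnap2*, whose product gathers potassium channels along myelinated axons in mammals, had the smallest p of this group in bin 24. That bin took 2.55%, 2.54% and 2.97% in CRISPR libraries 1, 2 and 3 and 1.98%, 1.88% and 1.98% in control libraries 1, 2 and 3. The groups were well apart, with 2.69% ± 0.247 (SD, n = 3) against 1.95% ± 0.0533 (SD, n = 3), on 37 to 135 counts a library (log2 usage change 0.46, unadjusted p = 0.0656 in edgeR). In *cntnap1*, bin 4 was lower at 4.16% to 4.29% against 4.56% to 6.14%, and bin 25 was higher at 1.51% to 1.96% against 0.861% to 1.46%. Over the group 3 bins were higher and 3 lower without overlap, of 72 compared (4.17% each, against 4.32% and 4.92% of all bins).

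*cntnap5* was left out of the shares because CRISPR library 3 held 3 bin counts for it. The other libraries held 116 and 137 (CRISPR 1 and 2) and 151, 89 and 30 (control 1, 2 and 3). At the gene level it stood at 0.0469 cpm in CRISPR library 3 and at 1.48 cpm or more in each other library. It was 1 of 5 genes among 15076 that fell in CRISPR library 3 under 5% of the lowest other library, and the like count was 0 to 2 in the other libraries. With CRISPR library 3 included its log2 fold change was -0.03 (adjusted p = 0.993 in edgeR), and without that library it was 0.52 (adjusted p = 0.663).

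The receptor protein tyrosine phosphatases made up 14 of the 37 genes and 377 of the bins, and not all of them are neuronal adhesion genes. *ptprf* (34 bins, 24439 bin counts) and *ptprs* (11 bins, 12092) are of the LAR type. *ptprk* (40 bins, 41576), *ptprm* (36 bins, 29321), *ptprt* (35 bins, 43638) and *ptpru* (33 bins, 19972) bind their own kind on other cells or resemble proteins that do. *ptpra* (25 bins, 75608), *ptpre* (20 bins, 4322), *ptprg* (15 bins, 19251), *ptpro* (18 bins, 25373) and *ptprr* (16 bins, 57918) are further phosphatases, and *ptprr* is known to act on MAP kinases. *ptprn* (23 bins, 145019) is a protein of secretory granules, *ptprb* (36 bins, 2002) is typical of blood vessels, and *ptprc* (35 bins, 2048) is the CD45 gene of blood and immune cells. Of 364 bins compared, 9 (2.47%) were higher and 13 (3.57%) lower without overlap, against 4.32% and 4.92% of all bins.

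*ptprm* held 6 of these, 1 higher and 5 lower. *ptprm* bin 16 took 0.492%, 0.440% and 0.293% in CRISPR libraries 1, 2 and 3 and 0.685%, 0.724% and 0.753% in control libraries 1, 2 and 3. Its counts were 27, 22 and 12 against 42, 46 and 17, and relative to its neighbours it stood at 23.2% and 14.4% in CRISPR libraries 2 and 3 and at 30.1% to 36.5% in the controls, with CRISPR library 1 just under the lowest control. All CRISPR libraries were lower, and the log2 usage change was -0.79 in edgeR (unadjusted p = 0.0381). It was -0.62 without CRISPR 3 (unadjusted p = 0.126). *ptprm* bin 15 beside it was lower as well, at 2.19% to 2.47% against 2.51% to 3.19%. Bins 22 and 23 were a second adjacent pair that was lower, bin 23 at 1.03% to 1.51% against 1.62% to 1.82% (log2 usage change -0.48, unadjusted p = 0.0865 in edgeR), and bin 27 was the fifth. Bin 10 was higher, at 2.68%, 2.68% and 3.47% against 2.40%, 2.50% and 1.73% (log2 usage change 0.39, unadjusted p = 0.1005 in edgeR). *ptprk* bin 10 had a small p (0.0922 in edgeR) with groups that overlapped, at 1.503% to 2.37% against 2.31% to 2.90%. In *ptprb* bin 14, which among the phosphatase bins of at least 1% share had the largest difference without overlap, the shares of 2.80% to 4.55% against 1.27% to 2.66% rested on 5 to 16 counts a library. The 3 adjacent bins 19, 20 and 21 of *ptprc* were lower without overlap on 58 to 63 counts each over all libraries.

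Shares of member bins varied between libraries of 1 group by more than counting alone gives. Over 775 bins with a mean of at least 10 counts, the SD within a group was a median of 1.52 times the binomial counting error in the CRISPR group and 1.22 times in the control group. It was over 2 times in 250 bins of the CRISPR and 149 of the control group, and the largest ratios were 26.5 and 14.6. CRISPR library 3 was the farthest from the mean of its group in 395 of the 775 bins, and control library 1 in 320. The bins of largest SD relative to counting error in each role were mostly end bins of large share: *app* bin 20, *cntnap2* bin 1, *cntn1* bin 1, *l1cam* bin 33 and *ptprf* bin 1, beside *nlgn3* bin 4. This ratio tends to rise with the count of a bin, so it does not rank bins by variation relative to their share.

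Of the first and last bin of each gene, the heavier held at least 5% of the counts in 27 member genes. Its share was highest in CRISPR library 3 in 22 of the 27, and among the controls it was highest in control library 1 in 24. These libraries were the 2 highest in 19 genes, and the share in CRISPR library 3 was 0.828 to 1.81 times the mean of the other libraries, with a median of 1.27. *ptprf* bin 1 took 20.5%, 16.5% and 34.8% in CRISPR libraries 1, 2 and 3 and 25.7%, 14.9% and 18.8% in control libraries 1, 2 and 3. *ncam1* bin 26 took 57.7%, 51.9% and 69.9% against 62.8%, 52.2% and 52.3%. CRISPR library 3 was the highest and control library 1 the next in both genes, so that the split ran across the treatment groups. In 0 of the 27 genes were the groups apart, where 4.32% of all bins were higher and 4.92% lower without overlap. Over 4253 gene models the median share of the heavier end bin was 17.9%, 17.8% and 20.6% in CRISPR libraries 1, 2 and 3 and 19.2%, 16.8% and 17.2% in control libraries 1, 2 and 3, so the same libraries stood highest outside the member genes. With both of these libraries left out, edgeR gave 0 member bins at the adjusted threshold and 10 at an unadjusted p under 0.05. These 10 were 1.18% of 845 members, against 1.598% of all bins. The DEXSeq model called 8 of 534 members with an adjusted p and 593 of 39008 bins over all genes, a like part of each. Whether RNA integrity or another property of these libraries took part was not tested.

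**Figure D4:**
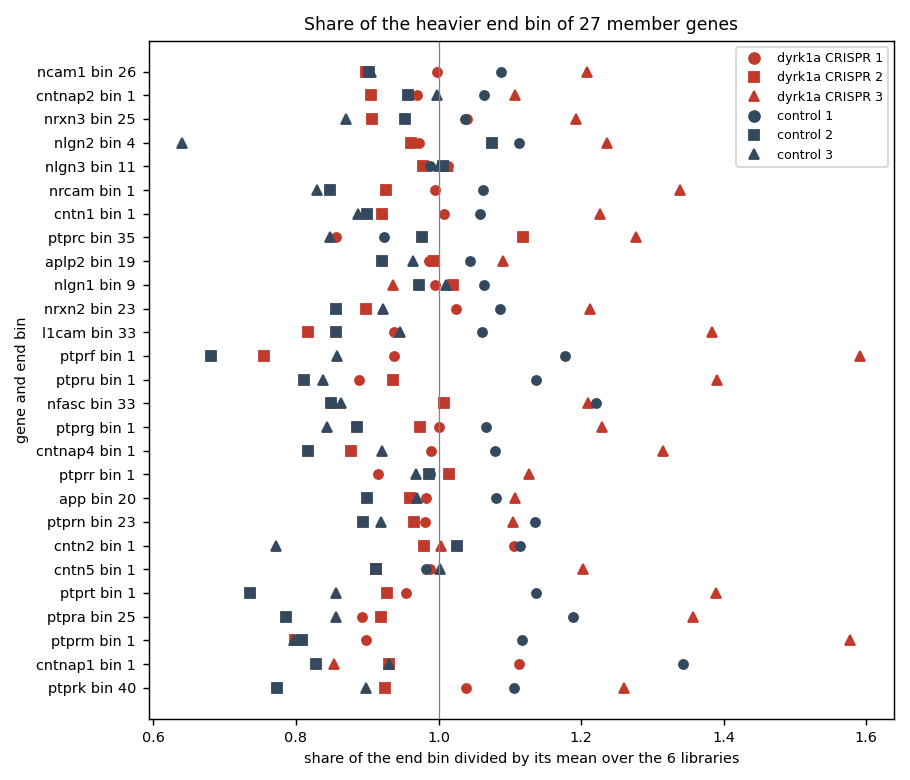
Share of the heavier end bin of 27 member genes in each library, divided by its mean over the 6 libraries; red symbols are CRISPR and dark symbols control libraries. The red triangles (CRISPR library 3) are highest in 22 genes, and the dark circles (control library 1) are highest among the controls in 24.

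At the gene level, 0 of the 37 member genes passed an adjusted p under 0.05 in edgeR, and over all 15076 genes 0.00663% were lower and 0 higher. At an unadjusted p under 0.05, 11 members (29.7%) were lower, against 6.14% of all genes, and 1 (2.7%) was higher, against 6.79%. The log2 fold change was below 0 in 32 of 37 members (86.5%), against 48.1% of all genes, with a median of -0.16 in the members and 0.01 over all genes, and that number was 32 with RLE factors and with DESeq2 too (48.0% of all genes in DESeq2). The 11 lower members became 7 without CRISPR 1, CRISPR 3 or control 3, 6 without control 2 and 13 without CRISPR 2. Without control 1 they stayed 11. Of all 15076 genes 926 were lower at that threshold, and 807, 762, 577, 632, 1023 and 913 with those libraries left out in the same order. In bulk brain tissue, fewer cells of a type and less RNA per cell cannot be told apart. The summed level of 10 of 10 neuron markers was 8019 to 8505 cpm in CRISPR and 9084 to 9598 cpm in control libraries. The largest part of it was *snap25* (2643 to 2985 against 3347 to 3906 cpm), and of the 10 markers 3 were lower and 1, *tubb3*, was higher at an unadjusted p under 0.05 in edgeR. The sum over neural progenitor genes was 3382 to 4079 against 2298 to 3095 cpm, with 11 of 16 gene models higher and 0 lower at that threshold. The 16 models came from 10 listed symbols, since *hes5* has several models, and many of the 11 were *hes5* models. The largest part of the sum was *fabp7* (1680.9 to 2328 against 968 to 1680.5 cpm). Of the microglia and macrophage genes 3 of 4 tested were higher (sum 44.8 to 49.6 against 28.4 to 33.5 cpm, 9 listed), and of the skeletal muscle genes 6 of 7 tested were lower (12.8 to 22.6 against 50.3 to 164 cpm, 9 listed). The sum over choroid plexus genes was 730 to 1139 against 411 to 555 cpm, of which *rbp4* made up 532 to 892 against 222 to 346 cpm and was the 1 gene of 5 tested (7 listed) that was higher at that threshold. The sum over meningeal genes was 119 to 145 against 75.3 to 98.7 cpm, with 4 of 8 higher, while *lum* and *dcn* had log2 fold changes of -0.84 and -0.50 that did not pass it. No tested marker of these lists was at 0, and their part in the levels of the adhesion genes was not tested.

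*ptprr* was at 165, 153 and 146 cpm in CRISPR libraries 1, 2 and 3 and at 207, 210 and 232 cpm in control libraries 1, 2 and 3. The groups were apart, at -0.48 on the log2 scale (standard error 0.10, edgeR adjusted p = 0.102), and DESeq2 called this gene alone among the members (adjusted p = 0.00457), 2.7% of them, against 0.809% of all genes called lower. *nptn* was at 2278, 2256 and 2421 cpm against 2992, 2811 and 2846 cpm. This is a change of -0.31 on the log2 scale (standard error 0.07, edgeR adjusted p = 0.122). Its bin 4 thus had a lower share of a gene whose level was also lower in every CRISPR library than in every control. *app* was at 2846, 2892 and 2290 cpm against 3119, 3459 and 3608 cpm, with a log2 fold change of -0.34 (adjusted p = 0.221 in edgeR), while its bin 9 took a higher share. At an unadjusted p under 0.05, *nrcam*, *ncam2*, *nrxn3*, *cntn1*, *cntn2*, *aplp2* and *nlgn1* had log2 fold changes from -0.43 to -0.20. *nlgn2*, the neuroligin of inhibitory synapses in mammals, was the 1 member that was higher at that threshold, at 3.60, 7.33 and 4.55 cpm in CRISPR and 2.56, 3.61 and 2.96 cpm in control libraries (log2 fold change 0.76, adjusted p = 0.351 in edgeR). CRISPR library 1 lay just under control library 2, so the groups overlapped, and without CRISPR 2 the log2 fold change was 0.42 (adjusted p = 0.557 in edgeR).

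**Figure D5:**
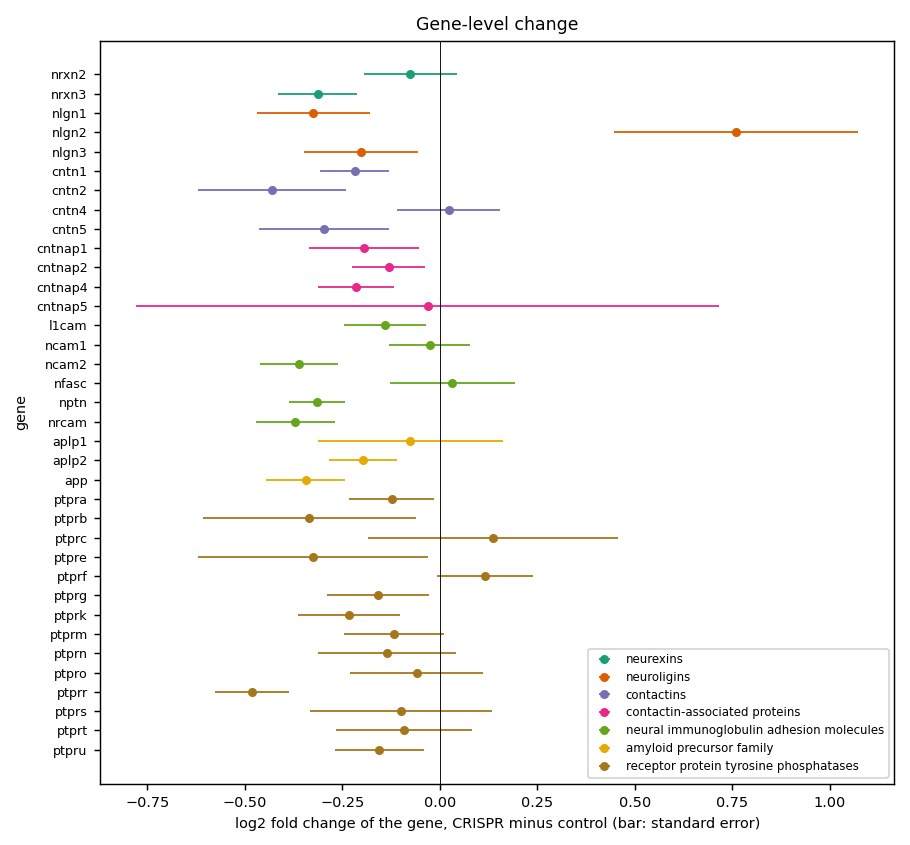
Log2 fold change of the member genes reported (edgeR, CRISPR minus control; bars are standard errors), coloured by role. Most values lie below 0, and *ptprr* at -0.48 and *nlgn2* at 0.76 are at the ends.

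Of 45 synaptic partners and scaffolds, 0 passed the adjusted threshold in edgeR in either direction. At an unadjusted p under 0.05, 5 (11.1%) were lower, against 6.14% of all genes, and 0 higher, against 6.79%. The log2 fold change was below 0 in 37 of the 45 (82.2%), against 48.1% of all genes, with a median of -0.10. The 4 of smallest p were *lrrtm4*, *lrrtm1* and *cbln1*, whose products bind neurexins, and *adgrl1*, a latrophilin gene, with log2 fold changes of -0.37, -0.27, -0.31 and -0.22. Of 14 genes for processing of the amyloid precursor and for its adaptors, 0 passed and 1 (7.14%) was lower at an unadjusted p under 0.05, the adaptor gene *apbb3* (log2 fold change -0.47, adjusted p = 0.113 in edgeR). Of 28 splicing regulators of neuronal exons, 0 passed, and at an unadjusted p under 0.05 there were 2 higher, *khdrbs1* (0.33) and *srsf3* (0.32), and 1 lower, *rbfox3* (-0.29), as log2 fold changes. These were 7.14% and 3.57% of the list, against 6.79% and 6.14% of all genes. These genes encode RNA-binding proteins that choose exons, and no link between them and the bins above was tested.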

How the data were processed

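Unstranded read pairs of polyA-selected RNA were aligned by the authors with STAR 2.7.3 to XenBase *X. tropicalis* v9.1. They deposited unscaled counts for genes and for exon bins, the second by DEXSeq with a strand setting that is not given in the sources used here. In addition, the authors deposited log2(cpm + 1) values of the gene counts, used here for gene symbols alone. The special counters of the exon table name no gene and were left out; reads in no exon came to 5.02% to 5.62% and ambiguous reads to 0.463% to 0.526% of a library.

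Usage of exons was modelled by glmQLFit and diffSpliceDGE of edgeR 4.0.16 (R 4.3.3, TMM factors) on all bins with counts in gene models of at least 5 counts, 214537 in all, with no covariate. Bins of 0 counts and genes with 1 such bin give no value. P-values were adjusted by Benjamini-Hochberg over all bins. Alternatives were the DEXSeq model fitted with DESeq2 1.42.0, which leaves some adjusted p out by its own filter, limma 3.58.1 (voom, diffSplice), RLE factors, other filters, the replicate number as a block and leaving out each library. Simes p-values per gene called 0 of 19713 models. Gene levels were tested by glmQLFTest of edgeR after removal of genes that did not exceed 1 cpm in 3 or more libraries. In 3 against 3 libraries an exact permutation p cannot go under 0.1. The edgeR tests and the DEXSeq model were tested on simulated data, in which both usage tests recovered most changes of 2 on the log2 scale and few of 1. Bins of low count were given no such usage change, and no library was given shifted end bins. All simulated bins had the same fixed dispersion, in place of the spread of each bin in the data. Recovery in bins of low count, with such shifts or at the spread of the real bins was thus not measured. Among the well-counted member bins no change reached 1, so that an absence of calls does not show an absence of change.

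Values in cpm use TMM-scaled library sizes, except those of *dyrk1a*, which use the plain gene-count total. A read can count in several bins. The members, gene lists and tests were chosen with earlier results of these data known. All member genes are named but for results that are not reported here. Bins are named if they have 1 of the 12 smallest p at a mean of at least 10 counts, the largest share difference without overlap or the largest spread over counting error in a role, pass a threshold, or hold the largest share of a gene described. Other bins named, among them the low-use bins and neighbours in *ptprm*, *ncam2*, *nptn*, *cntn5*, *nrxn3* and *ptprc*, were chosen after their values were seen. Of the other lists up to 4 genes of smallest p are named. Symbols came from the deposited table. Sequences and coordinates were not used here.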

Additional observations from a re-analysis of the deposited data

How the results depend on the processing

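Depth and 3 libraries a group limit these comparisons. Control 3 is the shallowest library, bins under about 10 counts a library have wide errors, and counts rest on which libraries enter. The exact permutation test cannot pass 0.05 at this size.

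In edgeR 0 member bins passed the adjusted threshold under RLE factors, other filters, the replicate block, the likelihood ratio fit, bins of 0 counts kept, limma and every left-out library. The DEXSeq model gave 2, between 0 and 6 with a library left out, and 8 without CRISPR 3 and control 1. These 8 were among 534 members with an adjusted p, against 593 of 39008 bins over all genes. Member bins at an unadjusted p under 0.05 numbered 6, against 12 in the DEXSeq model, 3 to 10 in edgeR with a library left out, 10 without CRISPR 3 and control 1, and in the DEXSeq model 19, 33, 20, 49, 11 and 13 without CRISPR 1, 2 and 3 and control 1, 2 and 3, and 55 without both. The DEXSeq counts were 2.24%, 3.88%, 2.36%, 5.78%, 1.29% and 1.53% of the members in that order, and 6.51% without both. Over all bins the percentages were 1.96%, 2.31%, 2.07%, 4.31%, 1.73% and 1.97%, and 4.08% without both. The percentage thus also rose over all bins without control 1 and without both. Over all genes the bins past the threshold numbered 0, against 26 in the DEXSeq model, 1 in limma, 3 in edgeR without CRISPR 3 and control 1, and in the DEXSeq model 30, 28, 28, 614, 5 and 15 with those libraries left out in the same order, and 593 without both. The cause was not tested. Some alternatives were chosen after seeing the data. They leave out both CRISPR 3 and control 1, keep bins of 0 counts, leave libraries out of the DEXSeq model or divide by neighbouring bins.

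Member bins without overlap numbered 61, and 107 to 193 with a library left out, when 3 against 2 libraries overlap less by construction; over all bins the shares then were 7.68% to 11.9% higher and 8.43% to 14.4% lower, against 5.31% to 9.29% and 7.24% to 15.3% of the members. With genes of at least 100 counts in every library the number was again 61. Member genes past the adjusted threshold numbered 0 in edgeR and 1 (*ptprr*, lower) both in DESeq2 and in edgeR with no filter.

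Same-numbered libraries of the groups showed little shared deviation (r of bin shares -0.01, 0.19 and -0.05 for replicates 1, 2 and 3). These 3 values cannot show whether the numbers pair the libraries. In the edgeR gene-level fit the standard error of *ptprt* was 0.17, and 0.10 once the replicate block was added. That of *cntn5* went the other way, from 0.166 to 0.180. With the replicate block, 0 member bins passed the adjusted threshold, 6 had an unadjusted p under 0.05, and 0 member genes passed.

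The log2 usage change was refitted for 21 bins. It kept its sign in all but 2 of 461 refits, those of *nlgn3* bin 4 without control 2 (-0.0065 in edgeR, where the range over left-out libraries was up to 0.27, and -0.022 in the DEXSeq model). Most of these bins had been chosen from the same libraries for a small p or for groups that were apart. A kept sign was thus largely fixed by that choice and is no separate support. In 15 of the 461, in *app* bin 9, *nptn* bin 4 and *l1cam* bin 32, the bin passed the threshold in the DEXSeq model where edgeR did not. The log2 fold change of 11 member genes turned sign with some library left out, and over these refits it ran as follows: *aplp1* -0.33 to 0.17, *cntn4* -0.081 to 0.12, *cntnap5* -0.71 to 0.52, *ncam1* -0.10 to 0.050, *nfasc* -0.049 to 0.14, *nrxn2* -0.17 to 0.0098, *ptprc* -0.31 to 0.34, *ptprn* -0.29 to 0.015, *ptpro* -0.23 to 0.072, *ptprs* -0.36 to 0.051 and *ptprt* -0.28 to 0.036. None of them passed the threshold.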
